A study of Mus musculus with 4 samples.

Results

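The cells described here were epithelial cells of the mouse liver that carried Epcam, an adhesion molecule of ducts and glands, together with keratins of simple epithelia. They numbered 600 of 31290 cells. A cell was counted when its barcode held at least 500 genes and at most 20% mitochondrial UMIs, at least 1 UMI of Epcam and at least 3 summed UMIs of Krt8, Krt18 and Krt19. It also had to hold 0 UMIs of Ptprc, which encodes the leukocyte antigen CD45, and at most 1 summed UMI of Ptprb and Stab2, which mark endothelial cells. A UMI is a molecular tag, so that a UMI count is a count of distinct captured RNA molecules. The 4 libraries came from male C57BL/6J mice that were a few weeks old when obtained, according to the methods of the study, and the labels give no age. By the same methods diet and then treatment followed, so the mice were months older when sampled. The NCD library (n = 1) came from normal chow diet, the HFD libraries (n = 2) from high-fat diet, and the JQF library (n = 1) from the same diet with Jiangtang Qingre Formula, a herbal decoction, given after it. The JQF and HFD groups therefore shared the diet. All livers were perfused and digested with enzymes before cells were captured. The methods list the liver tissues of each group as separate samples and the labels name no animals, and p-values measure the spread between these libraries. The labels give the tissue as liver and the cell type as an immune cell. The cells counted here held no Ptprc UMI by definition, so that cell type label does not describe them.

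Bile in the liver leaves through ducts lined by cholangiocytes, which modify it by secreting bicarbonate and water. These cells are known for the transcription factor Sox9, for Krt7 and Krt19, for the ciliary protein fibrocystin encoded by Pkhd1, and for osteopontin, the product of Spp1. The gallbladder and the large ducts outside the liver are lined by a taller epithelium with mucus and defence proteins, and Sox17 is known for its role in the development of that lining. Surface cells of the stomach secrete gastrokines (Gkn1, Gkn2), the trefoil factor Tff1 and the mucin Muc5ac.

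The promoters below are shown because their genes mark the cells that set HFD replicate 2 apart from the other libraries. Each is the 250 bases before the RefSeq transcription start in GRCm38.p6. The letters AGATAA, or TTATCT on the other strand, match the motif of GATA-family factors and were found in 9.99% of all 32851 promoters in this window. Both gastrokine promoters held the motif, which is in capitals, 82 bases before the start of Gkn1 and 218 bases before that of Gkn2. Of the 15 genes that stood highest in cells rich in gastric genes over cells with duct genes only, 10 were in the reference with 12 promoters, and 3 of the 12 held the GATA motif, those of Cldn18, Gkn1 and Gkn2. Across all such rankings between groups of these cells the share ran from 11.1% to 37.5% of promoters. In those led by cells with duct genes only it ran from 11.1% to 20%. These shares rest on few promoters. A match is a description of letters, not of a bound site.
Gkn1, chr6:87350916-87351165, minus strand: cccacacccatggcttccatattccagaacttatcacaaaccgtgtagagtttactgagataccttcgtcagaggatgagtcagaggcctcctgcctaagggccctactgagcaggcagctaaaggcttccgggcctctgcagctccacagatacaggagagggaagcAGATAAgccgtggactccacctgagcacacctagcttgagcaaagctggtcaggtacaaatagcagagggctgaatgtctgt
Gkn2, chr6:87373115-87373364, plus strand: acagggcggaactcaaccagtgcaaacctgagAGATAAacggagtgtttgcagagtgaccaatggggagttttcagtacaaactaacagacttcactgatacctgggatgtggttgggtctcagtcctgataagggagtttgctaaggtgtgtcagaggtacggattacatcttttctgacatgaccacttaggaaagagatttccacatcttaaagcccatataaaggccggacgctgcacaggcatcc

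The libraries held 25 such cells in NCD, 190 in HFD replicate 1, 85 in HFD replicate 2 and 300 in JQF. As a share of all kept cells this was 0.418% in NCD (exact 95% binomial interval 0.271 to 0.617), 2.92% in HFD replicate 1 (2.52 to 3.35), 0.829% in HFD replicate 2 (0.662 to 1.02) and 3.51% in JQF (3.13 to 3.93). Intervals here cover counting error only. The HFD replicates therefore differed from each other more than their mean of 1.87% ± 1.48 (SD, n = 2) differed from either other group. HFD exceeded NCD by 1.45 percentage points and JQF exceeded HFD by 1.64, each with p = 0.667 in an exact two-sided permutation test over libraries, where 1 library against 2 cannot go below 0.333. Against the kept cells without Ptprc alone, the shares were 0.690%, 34.7%, 5.05% and 27.4% in the same order. This denominator moved with the number of other non-leukocytes, of which NCD held 3416 endothelial cells and HFD replicate 1 held 92. The summed UMIs were 617987 in NCD, 3195380 and 2813457 in the HFD replicates, and 7520544 in JQF. Median UMIs per cell ran from 13909.5 in HFD replicate 1 to 23818 in HFD replicate 2, and median genes from 4427.5 to 5502. No barcode of these cells occurred in more than 1 library.

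Because the cells were chosen by Epcam and keratins, those genes are no finding about them. Exactly 1 Epcam UMI was held by 28 of the 600 cells, and exactly 3 keratin UMIs by 6. Exactly 1 endothelial UMI was held by 13 of the 25 NCD cells, beside 4, 6 and 9 cells in HFD replicate 1, HFD replicate 2 and JQF. A further 160 barcodes failed only by lack of Epcam, of which 95 were in HFD replicate 2, and 16 only by keratins. Endothelial UMIs alone kept out 13, of which 7 were in NCD, so the counts of these libraries depend on the limits. Ptprc alone kept out 170 barcodes, of which 91 held exactly 1 Ptprc UMI and 95 were in JQF. The 20 genes that stood highest over all other kept cells included Wfdc15b, Kcnip4, Veph1, Shank2, Pkhd1, Dcdc2a, Kcnma1, Erbb4, Lamc3 and Sox9, the 20 being at 34.3-fold or more in every library with at least 10 of these cells. Pkhd1 and Dcdc2a encode proteins of the primary cilium, and Lamc3 a laminin chain.

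Each cell was then asked for bile duct genes and for gut genes. A cell counted as gut-gene positive with at least 3 summed UMIs of Gkn1, Gkn2, Tff1, Psca, Mucl3, Spink4 and S100g. These were 2 of 25 cells in NCD (8.0%), 17 of 190 in HFD replicate 1 (8.95%), 56 of 85 in HFD replicate 2 (65.9%) and 117 of 300 in JQF (39.0%). Sox9 was found in 96.0%, 95.8%, 64.7% and 94.0% of the cells, and Krt19, itself part of the rule, in 80.0%, 85.8%, 92.9% and 89.0%. Both Sox9 and gut genes were held by 2, 16, 29 and 102 cells, so that the gene groups did not divide the cells cleanly. Gut genes without Sox9 were found in 0, 1, 27 and 15 cells. After each cell was thinned to 3000 UMIs, which left out 3 shallower cells, the gut-gene positive shares were 0%, 7.98%, 54.1% and 34.4%, so HFD replicate 2 and JQF stayed highest.

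The gut-gene positive cells were of different kinds in HFD replicate 2 and in JQF. In HFD replicate 2, 31 cells held between 2911 and 40312 UMIs of the 5 gastric genes Gkn1, Gkn2, Tff1, Psca and Mucl3, with a median of 12325. The next cell of any library held 83, and the highest counts elsewhere were 0 in NCD, 1 in HFD replicate 1 and 29 in JQF. In NCD, HFD replicate 1 and JQF all gut-gene positive cells were instead defined by at least 3 UMIs of Spink4 and S100g, in 2, 17 and 117 cells, as were 13 further cells in HFD replicate 2. A remaining 12 cells of HFD replicate 2 held 3 to 83 gastric UMIs, all with Sox9. Cells with Sox9 and without gut genes are called duct-like below and numbered 22, 166, 26 and 180. Another 14 cells had neither. This division into gastric-gene (Gkn/Tff1), Spink4/S100g and low-gastric cells was made after the values had been seen. The plot of single cells shows the gap in HFD replicate 2.

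**Figure D1:**
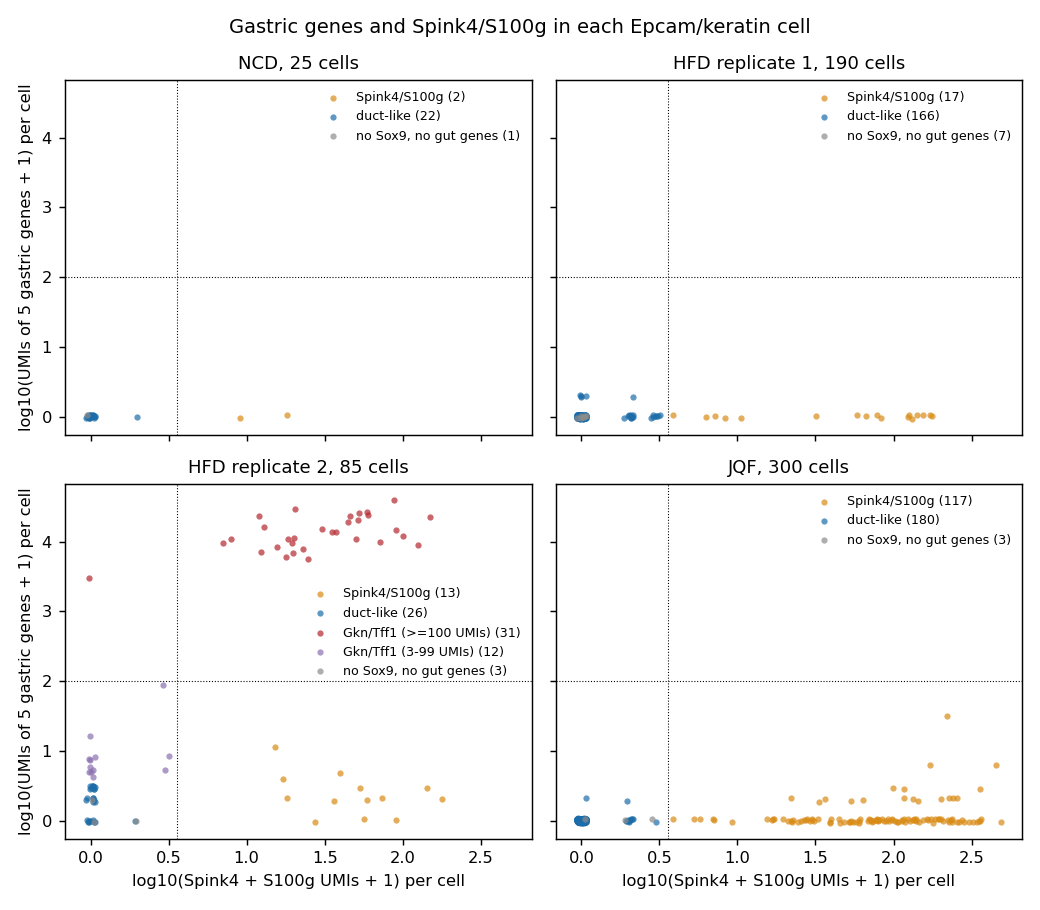
Each point is 1 cell, with summed Spink4 and S100g UMIs on the x axis and summed UMIs of 5 gastric genes on the y axis, both as log10(UMIs + 1) with a small random shift. The dotted lines mark 100 gastric UMIs and 3 Spink4 and S100g UMIs. The 31 cells above the horizontal line are all in HFD replicate 2, and JQF holds 117 of the 149 Spink4/S100g cells.

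The classes made up different shares of the libraries. Duct-like cells were 88.0% of the cells in NCD (exact 95% interval 68.8 to 97.5), 87.4% in HFD replicate 1 (81.8 to 91.7), 30.6% in HFD replicate 2 (21.0 to 41.5) and 60.0% in JQF (54.2 to 65.6). In HFD replicate 2 this share leaves out the 12 low-gastric cells (14.1%), all with Sox9. Spink4/S100g cells were 8.0%, 8.95%, 15.3% and 39.0%, with exact intervals of 5.30 to 13.9 and 8.40 to 24.7 in HFD and 33.4 to 44.8 in JQF. The order against HFD replicate 2 depended on the denominator, which there includes the gastric-gene cells. Without these it held 13 of 54 (24.1%, interval 13.5 to 37.6), and against duct-like and Spink4/S100g cells alone 13 of 39 (33.3%, 19.1 to 50.2) beside 117 of 297 in JQF (39.4%, 33.8 to 45.2), so these intervals overlapped. Without marked doublets the class was 2 of 42 in HFD replicate 2 (4.76%, 0.582 to 16.2) and 106 of 281 in JQF (37.7%, 32.0 to 43.7), and the intervals did not overlap. JQF stayed above HFD replicate 1 (9.29%, 5.51 to 14.5), but with 1 JQF library this has no replicate check. Gastric-gene cells were 36.5% of HFD replicate 2 (26.3 to 47.6). In the other libraries 0 cells of this kind were found, with upper interval limits of 13.7% of the 25 NCD cells, 1.92% of the 190 cells of HFD replicate 1 and 1.22% of the 300 JQF cells. Without them, the share of epithelial cells in HFD replicate 2 was 0.526%.

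**Figure D2:**
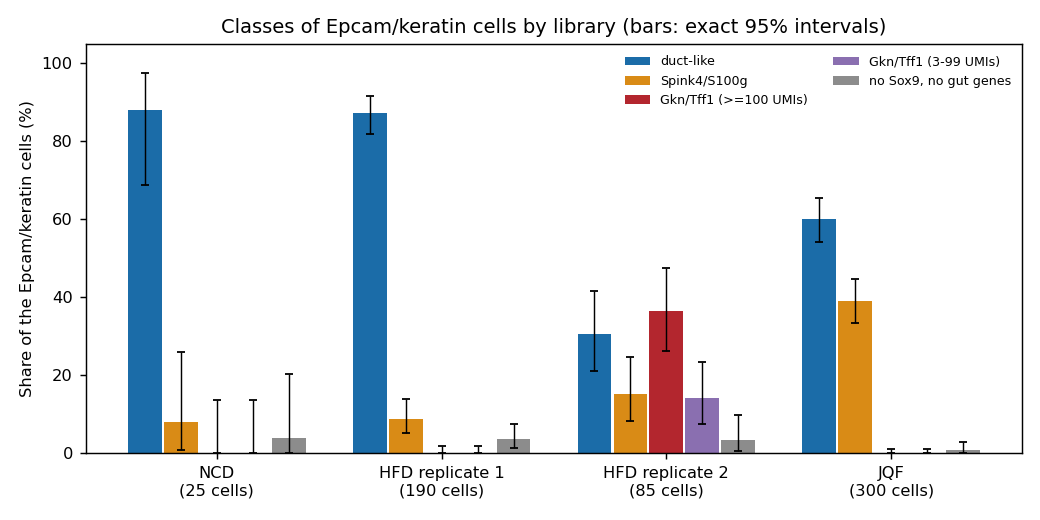
Bars give the share of each class among the epithelial cells of a library in percent, and error bars are exact 95% binomial intervals of counting error. Duct-like cells are 88.0% and 87.4% in NCD and HFD replicate 1, gastric-gene cells (at least 100 UMIs) appear at 36.5% in HFD replicate 2 alone, and Spink4/S100g cells reach 39.0% in JQF.

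The 31 gastric-gene cells held gastric genes beyond the 5 that they were chosen by, whose own levels are no finding about them. Tff1 (chr17:31161395-31165277) gave 203674 UMIs, Gkn2 135070 (chr6:87373357-87379497) and Gkn1 109455 (chr6:87345650-87350942), and the 5 gastric genes together made up 26.5% of all UMIs in these cells. Tff2, the trefoil factor of gastric neck cells, gave 39994 UMIs, the mucin gene Muc5ac 6539 and Cldn18, a claudin with a stomach form, 2399, each in 31 of 31 cells. These positions come from GENCODE M21 on GRCm38. Muc5ac, Cldn18, Agr2, Ctse and Mecom were among the 15 genes that stood highest over duct-like cells, where Muc5ac had 1 UMI and Cldn18 had 2 in 394 cells. Gata4, a GATA-family factor, gave 467 UMIs in 31 of 31 cells against 3 UMIs in all duct-like cells. Pdx1, known in pancreas, duodenum and antrum, was found in 90.3% of the gastric-gene cells and Sox2 in 35.5%, with 15 UMIs. The chief cell and parietal cell genes were low or missing: Pgc gave 63 UMIs in 18 of 31 cells, and Atp4a and Chia1 were at 0. Intestinal genes were mixed. The factors Cdx1 and Cdx2 were at 0, but the 16 intestine markers summed to 3839 CPM, against 53.3 CPM in duct-like and 1595 CPM in Spink4/S100g cells, with 10 of the 16 at 0 and 4 in at least 50% of the cells. Phgr1 was found in 31 of 31 cells with 1754 UMIs. The 10 goblet and Paneth cell markers other than Spink4, which was used to divide the cells, summed to 4900 CPM against 68.7 and 1720 CPM, and the goblet cell genes Clca1 and Zg16 were found in 87.1% and 45.2% of the gastric-gene cells.

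Markers of the bile duct were low in the same cells. Of 16 bile duct markers, 5 were at 0 (Slc10a2, Tm4sf4, Bicc1, Onecut1 and Cldn10), and the summed level of the list was 884 CPM, a unit that scales the UMIs of a gene to a common total, against 18252 CPM in duct-like cells. Sox9 was found in 5 of the 31 cells, with 20 UMIs. Of the 16 markers, 4 were nevertheless found in at least 50% of the cells. Sctr, the receptor for secretin, was found in 22 of the 31. Cldn3, a claudin of simple epithelia, was at 0, whereas Krt8 stood at 6370 CPM and Krt19 at 6287 CPM. Epcam was lower than in duct-like cells, at 213 against 683 CPM. Genes of glutathione and quinone metabolism were high, with Gsta1 at 7782 CPM and Nqo1 at 684 CPM, against 1 and 17 UMIs in duct-like cells. The summed level of 18 detoxification genes was 15317 CPM against 1197 CPM in duct-like cells. Immediate early and heat shock genes, which often rise during tissue digestion, summed to 1629 CPM against 19395 CPM in duct-like cells and 17147 CPM in Spink4/S100g cells. Fos was at 282 CPM against 3425 CPM in duct-like cells. Markers of mesothelium and of stellate cells were at 0. The gastric-gene cells held a median of 52188 UMIs, against 13832.5 in duct-like cells, and 24 of the 31 were among the barcodes marked as doublets, that is as possible pairs of cells, beside 8.75% of all barcodes in that library. Without marked barcodes, gastric-gene cells were 7 of 42 (16.7%). All of these cells came from 1 library.

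RNA of the gastric genes was also found outside the epithelial cells of HFD replicate 2. Among T cells, which should lack these genes, 62.9% held at least 1 UMI of the 5 gastric genes in HFD replicate 2 at a median depth of 6810.5 UMIs, against 0.759%, 0.204% and 0.0809% in NCD, HFD replicate 1 and JQF at 10907.5, 7279 and 8160. Endothelial cells of HFD replicate 2 gave 63.1% at 5847 UMIs. Duct-like cells of that library stood at 65.4% at 16066 UMIs. That class holds at most 2 gut-gene UMIs by definition, and the part of free RNA in this share was not tested. In barcodes outside the called cells the 5 genes stood at 9160 CPM in HFD replicate 2 and at 2.74, 0.402 and 7.05 CPM in NCD, HFD replicate 1 and JQF. Per 100 Tff1 UMIs there were 53.7 of Gkn1 in gastric-gene cells, 62.3 outside called cells and 70.8 in T cells. For Gkn2 the values were 66.3, 89.2 and 106. The 12 cells with 3 to 83 gastric UMIs held a median of 5.5 such UMIs, at a median depth of 22660.5 UMIs. Their 16 bile duct markers summed to 22160 CPM, beside 21718 CPM in the duct-like cells of that library. The part of free RNA in these 12 cells was not tested. The gut-gene positive and duct-like shares of HFD replicate 2 depend on how these cells are counted.

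**Figure D3:**
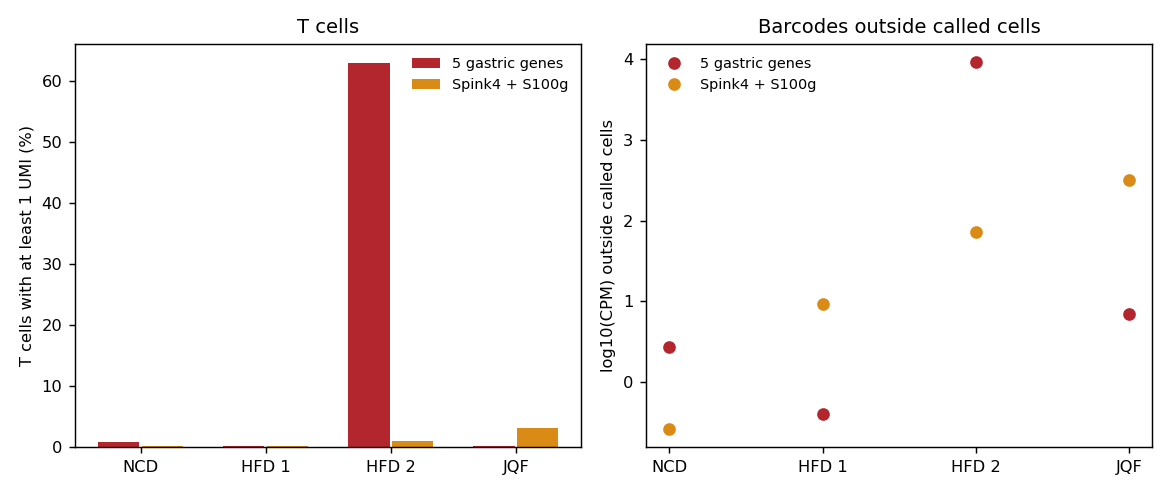
The left panel gives the share of T cells with at least 1 UMI of 5 gastric genes or of Spink4 and S100g in percent, and the right panel the level of the same genes in barcodes outside called cells as log10(CPM). HFD replicate 2 stands apart for the gastric genes, at 62.9% of T cells, and JQF is highest for Spink4 and S100g, at 3.10% of T cells.

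The 149 Spink4/S100g cells kept several duct genes and added mucosal defence genes. Sox9 was found in 132 of them, at 137 CPM against 633 CPM in duct-like cells, which were chosen for holding it. Tm4sf4, Onecut1 and Bicc1 were each found in 89.3% or more of the Spink4/S100g cells. Class levels given without a library are pooled over libraries. JQF held 4728547 of the 5422121 UMIs of the Spink4/S100g cells, so their pooled levels rest mostly on that library. Krt19 stood at 2360 CPM against 242 CPM and Krt7 at 311 CPM against 98.8 CPM. Besides Spink4 and S100g, the genes that led over duct-like cells included Dmbt1, Ltf, Tff3, Ly6d, Gabrp, Cdh13, Tmc5, Duox2, Serpinb1a and Duoxa2. Dmbt1 encodes a mucosal scavenger protein, Ltf encodes lactoferrin, and Duox2 with its partner Duoxa2 forms an oxidase of epithelial surfaces. Dmbt1 gave 258, 3140, 3754 and 45860 UMIs in NCD, HFD replicate 1, HFD replicate 2 and JQF, which is 4895, 8737, 13338 and 9699 CPM, against 0, 6.07, 2.39 and 7.22 CPM in duct-like cells. The summed level of Dmbt1 was thus higher in the Spink4/S100g cells of every library, although 2 of the 17 cells in HFD replicate 1 held none. The list of 15 epithelial defence genes summed to 8795 CPM against 1413 CPM in duct-like cells and 777 CPM in gastric-gene cells, but in the 2 NCD cells it was 569 CPM, below the 1361 CPM of NCD duct-like cells.

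Among 10202 genes with at least 100 UMIs, 459 (4.50%) were at least 2-fold higher and 692 (6.78%) at least 2-fold lower in Spink4/S100g than in duct-like cells in 3 of 3 libraries with at least 10 cells of each. These counts are a description, because the classes were cut from the same cells, and the smallest classes held 13 and 17 cells. In HFD replicate 2, 11 of the 13 Spink4/S100g cells were marked as doublets, and without these that library would not reach 10 cells. Lower genes included Spp1, at 918 CPM against 11590 CPM, Pkhd1 at 334 against 2014 CPM, and Prox1, a factor of liver and lymphatic development, at 16.6 against 439 CPM. The receptor gene Erbb4 was at 82.8 against 1502 CPM and the potassium channel gene Kcnma1 at 4.06 against 1114 CPM. The plasma protein genes Alb and Ahsg, named here after their values were seen, gave 100 and 2 UMIs in Spink4/S100g cells and 22771 and 10762 in duct-like cells. Ttr, which encodes another plasma protein, was lower too but stayed at 540, 721 and 1491 CPM in the Spink4/S100g cells of HFD replicate 1, HFD replicate 2 and JQF, against 1709, 2018 and 2496 CPM.

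Among the epithelial cells, Sox17 was found mainly in the Spink4/S100g cells of JQF. It was held by 92 of 117 cells in JQF (78.6%), 3 of 13 in HFD replicate 2, 0 of 17 in HFD replicate 1 and 0 of 2 in NCD, against 1 of 394 duct-like cells. The median depth of the class was 35163 UMIs in JQF, 19657 in HFD replicate 2 and 18527 in HFD replicate 1. After the cells of the class were thinned to 3000 UMIs, 35 of 117 held Sox17 in JQF (29.9%, exact 95% interval 21.8 to 39.1), 0 of 17 in HFD replicate 1 (up to 19.5%) and 0 of 13 in HFD replicate 2 (up to 24.7%), so at equal depth the interval of JQF overlapped that of HFD replicate 2. The class summed to 4728547 UMIs in JQF, 281456 in HFD replicate 2, 359407 in HFD replicate 1 and 52711 in NCD. Raw counts of its genes are therefore not on a common scale between libraries. The water channel gene Aqp1 gave 779 UMIs in the JQF cells of this class, 4 in HFD replicate 2, and 0 in HFD replicate 1 and NCD. The sodium-proton exchanger gene Slc9a3 gave 202, 0, 0 and 0 UMIs in the same order, and Cyp2f2 gave 367, 0, 0 and 0. Ctrb1, a pancreatic protease gene, gave 1228 UMIs in 32.5% of the JQF cells and 0 UMIs in every other library. S100g, a calcium-binding protein of absorptive epithelia, stood at 853 CPM in JQF, 99.5 CPM in HFD replicate 2, 27.8 CPM in HFD replicate 1 and 0 CPM in NCD. Spink4 itself was not highest in JQF, at 2125 CPM against 3756 and 2725 CPM in the HFD replicates and 455 CPM in NCD. Doublets were marked in 11 of the 117 JQF cells and 11 of the 13 cells of HFD replicate 2. Spink4 and S100g were found in 3.10% of JQF T cells at a median of 8160 UMIs. Outside the epithelial cells, Sox17 was also found in 34.3% of JQF and 44.3% of NCD endothelial cells, and Aqp1 in 97.0% and 95.7%.

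**Figure D4:**
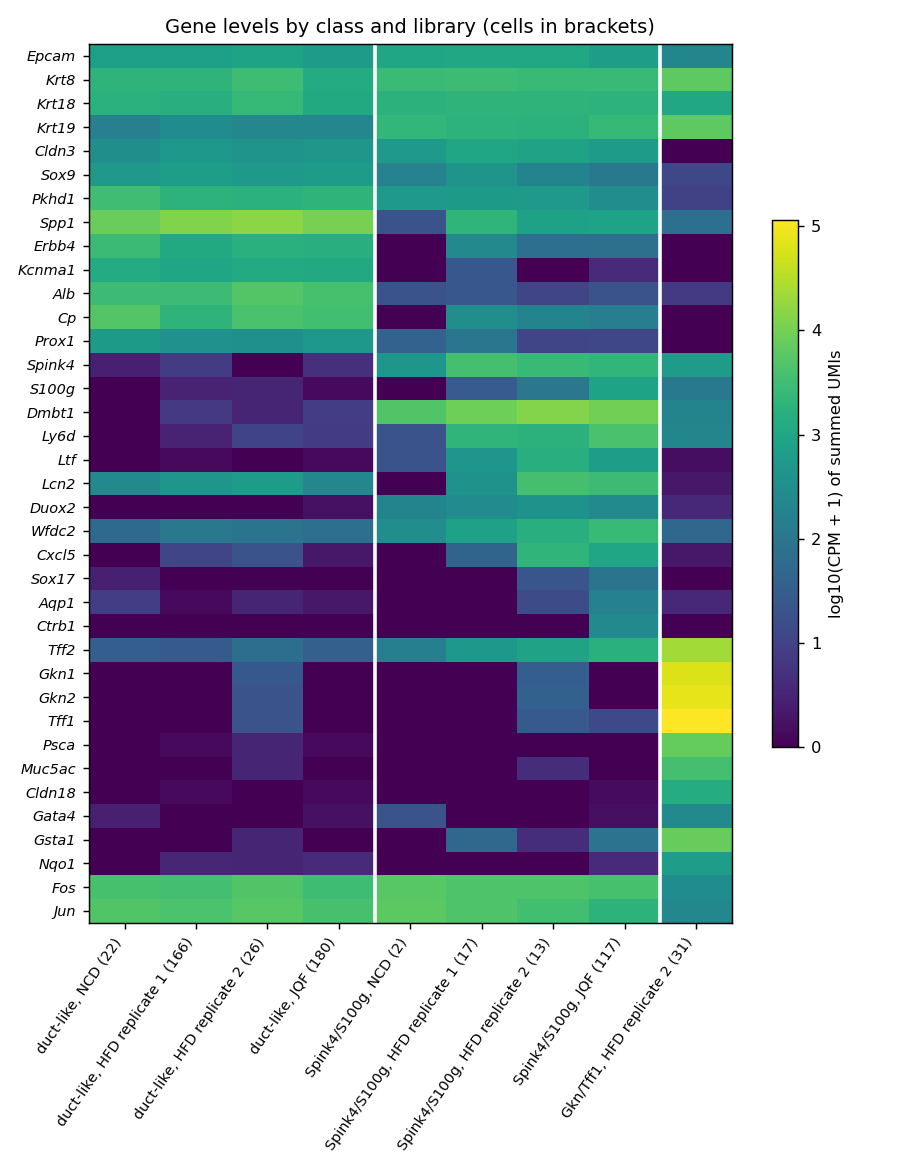
Colour gives log10(CPM + 1) of the UMIs summed over the cells of a class (columns, with the number of cells in brackets) for each gene (rows). Spp1, Erbb4 and Kcnma1 are high in the duct-like columns, Dmbt1, Ltf and Duox2 in the Spink4/S100g columns, and Gkn1, Gkn2 and Tff1 in the Gkn/Tff1 (gastric-gene) column, while Sox17, Aqp1 and Ctrb1 are highest in the Spink4/S100g cells of JQF.

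The 394 duct-like cells carried the markers of bile ducts in every library. Tm4sf4 was found in 98.9% to 100% of the cells of each library, Pkhd1 in 99.4% to 100% and Bicc1 in 98.3% to 100%. Spp1 was among the most abundant transcripts, at 7983 CPM in NCD, 12722 and 14954 CPM in the HFD replicates, and 10670 CPM in JQF. Sctr was found in 39.4% to 68.2% of the cells, and Cftr, the chloride channel of bile secretion, in 15.4% to 54.5%. Alb, an hepatocyte transcript, was found in 98.2% to 100% of the duct-like cells, at 2891, 2982, 5204 and 3834 CPM. Apoa1, another abundant hepatocyte transcript, stood at 0.230 to 0.555 UMIs per 100 Alb UMIs in duct-like cells, against 15.6 to 29.3 in T cells and 18.7 to 23.8 in barcodes outside called cells. The ratio was lower in duct-like cells than in T cells and outside called cells in every library. Alb was found in 12.6% to 53.2% of T cells, and the part of free RNA in the Alb of duct-like cells was not tested. The 7 lymphocyte markers summed to 9.92 CPM and the 8 myeloid markers to 90.8 CPM. Of the endothelial markers, Ptprb and Stab2 were limited by the rule. The other 5 summed to 132 CPM in NCD and 7.17 to 18.6 CPM in the other libraries.

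The question of the design, which genes of these cells differ with diet and with JQF treatment, was tested on UMIs summed per library with edgeR's quasi-likelihood test. Over all 600 cells, 0 of 13434 genes (0%) passed an adjusted p of 0.05 in HFD against NCD and 0 (0%) in JQF against HFD. An unadjusted p under 0.05 was found for 406 and 292 genes, in each case a smaller share of the genes tested than 0.05. DESeq2 called 18 of 5100 and 31 of 12652 genes with an adjusted p. The spread in these tests rests on 1 pair, the HFD replicates, and gastric-gene cells were in only 1 of them. The genes with the smallest p in HFD against NCD included Sprr1a, a gene of stressed squamous epithelia, with 0 UMIs in NCD, 186 and 223 UMIs in the HFD replicates and 9 UMIs in JQF. Those in JQF against HFD included Ctrb1 with 0, 0, 0 and 1228 UMIs, the chloride-bicarbonate exchanger gene Slc26a3 with 0, 1, 0 and 496, the crypt protein gene Olfm4 with 1, 17, 12 and 1007, and Iglc2 with 0, 1, 3 and 6824. None of these passed, with adjusted p from 0.173 to 0.293 for the genes named in JQF against HFD. Of the Iglc2 UMIs, an immunoglobulin light chain transcript of plasma cells, 99.9% were in 3 JQF cells.

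Without the 31 gastric-gene cells, 46 of 12896 genes (0.357%) passed in HFD against NCD, 23 (0.178%) in each direction, and 236 (1.83%) in JQF against HFD, 183 higher (1.42%) and 53 lower (0.411%). This choice of cells was made after the values had been seen. The cells then compared still differed in their classes, with 117 of 300 Spink4/S100g cells in JQF against 17 of 190 and 13 of 54 in HFD, so the genes of that class and its share cannot be told apart here. Of 18 detoxification genes, 15 were tested and 8 passed as higher in JQF (Akr1b8, Cbr3, Cyp2c65, Cyp2f2, Gpx2, Gsta1, Gsta3 and Gsta4), with 0 lower. The median log2 fold change of this list was 1.61, beside -0.05 over all genes. With the gastric-gene cells kept in, the median was instead -0.72, beside -0.07 over all genes. Then 6 of 17 tested were above 0 and 0 passed. The list summed there to 1214 and 10074 CPM in the HFD replicates and 2240 CPM in JQF. In duct-like cells alone 0 of the 11 tested passed in edgeR, 3 were above 0 and the median was -0.21, beside -0.01 over all genes. Gpx2, a glutathione peroxidase of gut epithelium, stood at 12.2 and 30.6 CPM in HFD and 142 CPM in JQF (log2 fold change 3.02 ± 0.41 SE, adjusted p = 0.0035). Of the ion transport genes, Aqp1, Car2 and Slc9a3 passed as higher, 3 of 15 tested. Of the chemokine genes, Ccl20, Ccl28 and Il18 passed as higher, 3 of 13. Vtn and Ncam1 passed as lower among the 16 genes of ductular reaction. So did Ankrd1, a YAP target, among 9 genes of Notch and YAP, and Ifit3 among 11 interferon-stimulated genes.

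The duct-like cells alone gave a comparison without the other classes, again chosen after the values had been seen. Their limit on gut-gene UMIs left out the 12 low-gastric cells, all with Sox9 and all in HFD replicate 2. These had a median depth of 22660.5 UMIs against 16066 in the duct-like cells of that library. Of 12004 genes, 26 (0.217%) passed in HFD against NCD, 11 higher (0.0916%) and 15 lower (0.125%), and 8 (0.0666%) in JQF against HFD, 3 higher (0.025%) and 5 lower (0.0417%). Both comparisons use the same HFD libraries. The NCD library held only 22 duct-like cells. With doublets removed, which took out 11, 5 and 8 duct-like cells of HFD replicate 1, HFD replicate 2 and JQF, 0 and 1 genes passed, with 1065 and 274 at an unadjusted p under 0.05. DESeq2 on all duct-like cells called 25 of the 601 genes it gave an adjusted p in HFD against NCD, 16 higher and 9 lower, and 2 of 12004 in JQF against HFD. Without the filter on low counts 229 and 56 passed, and 353 and 71 when the 12 low-gastric cells of HFD replicate 2 were added. In 15 of the 26 and 4 of the 8 genes, 3 cells held 50% or more of the UMIs of the higher group. The higher group was NCD, with 22 cells, for genes lower in HFD, and HFD, with 166 and 26 cells, for genes higher in HFD, so this measure bears unequally on the directions.

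Rgs5, Vcam1, Gc and Basp1 passed in both comparisons. Rgs5, a regulator of G protein signalling known from pericytes, gave 29 UMIs in NCD, 1020 and 160 in the HFD replicates, and 62 in JQF, which is 51.7, 364, 383 and 22.4 CPM. Both HFD libraries lay above the other libraries. The log2 fold change was 2.89 ± 0.40 (SE) for HFD over NCD, adjusted p = 0.0127, and -4.07 ± 0.40 for JQF over HFD, adjusted p = 0.0019. In JQF against HFD this gene passed in 6 of 6 alternatives, among them doublets removed (adjusted p = 0.0253), where HFD against NCD gave 0.0767. It was found in 97 of 166 cells of HFD replicate 1 and 31 of 180 JQF cells, although 3 cells held 73.1% of its UMIs in HFD replicate 2. In all other kept cells of the libraries Rgs5 stood at 1.82 to 11.9 CPM.

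Vcam1, the adhesion molecule that binds leukocytes, gave 1, 312, 41 and 36 UMIs in duct-like cells, at 1.78, 111, 98.1 and 13.0 CPM. Its log2 fold change was 5.87 ± 0.73 for HFD over NCD (adjusted p = 0.0100) and -3.03 ± 0.40 for JQF over HFD (adjusted p = 0.0136). The first value rests on 1 NCD UMI, an exact Poisson 95% interval of 0.0451 to 9.92 CPM, and is no bound. The adjusted p was 0.0715 and 0.144 with doublets removed, and 0.177 for JQF against HFD in DESeq2. In Spink4/S100g cells Vcam1 stood at 141 CPM in JQF, between the 27.8 and 188 CPM of the HFD replicates. In the other kept cells it stood at 219 CPM in NCD, 123 and 513 CPM in HFD, and 86.6 CPM in JQF, and the part of this in the duct-like result was not tested.

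Gc, the vitamin D-binding protein of plasma, gave 17, 856, 118 and 161 UMIs at 30.3, 306, 282 and 58.1 CPM. Its log2 fold change was 3.32 ± 0.42 for HFD over NCD (adjusted p = 0.0100) and -2.35 ± 0.35 for JQF over HFD (adjusted p = 0.0292). Basp1, a membrane protein of growing cells, gave 2, 301, 54 and 59 UMIs at 3.56, 108, 129 and 21.3 CPM, with log2 fold changes of 5.04 ± 0.65 (adjusted p = 0.0100) and -2.46 ± 0.38 (adjusted p = 0.0374). The NCD level of Basp1 rests on 2 UMIs (interval 0.431 to 12.9 CPM). For both genes the HFD libraries did not overlap the others. With doublets removed the adjusted p was 0.0767 for Gc and for Basp1 in HFD against NCD, and 0.276 for both in JQF against HFD. DESeq2 gave 0.813 for Basp1 and 0.0314 for Gc in JQF against HFD. Among the other kept cells, Basp1 stood at 53.6 CPM in the NCD library, 245 and 232 CPM in both HFD libraries and 176 CPM under JQF, and Gc at 36.4, 54.1, 44.5 and 17.7 CPM.

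**Figure D5:**
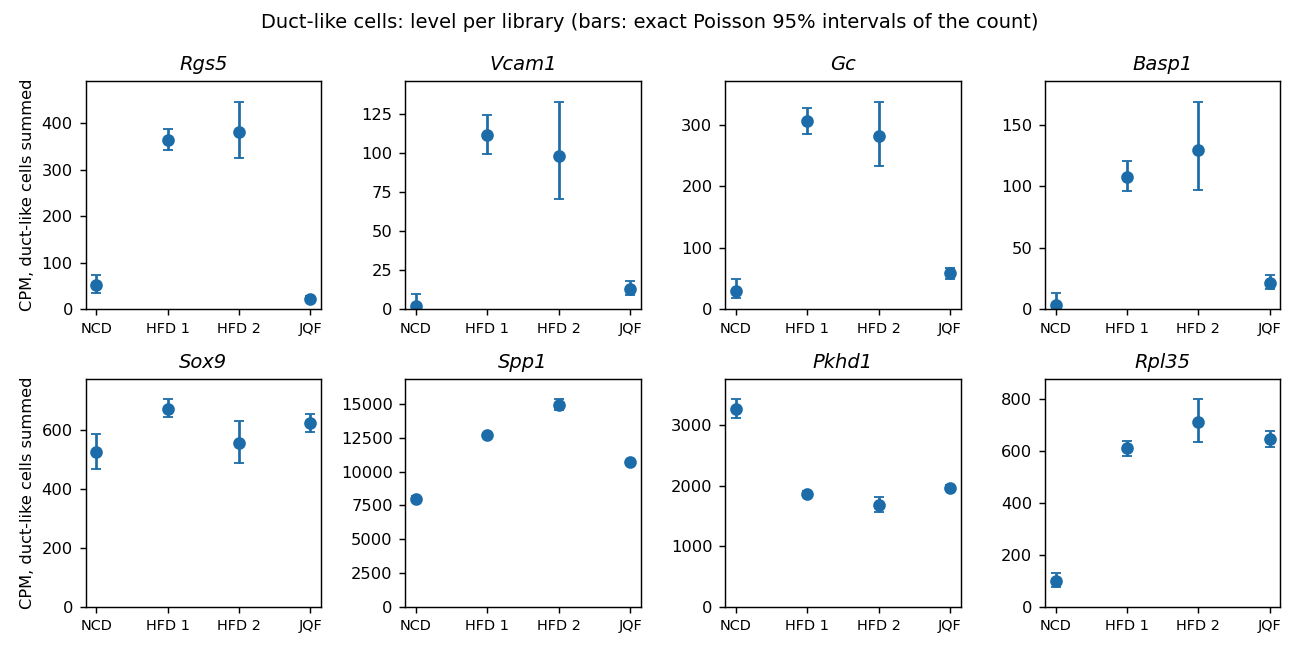
Points give the CPM of summed UMIs in the duct-like cells of each library, for 8 genes, with exact 95% Poisson intervals of the count. Rgs5, Vcam1, Gc and Basp1 are high in both HFD libraries, Sox9, Spp1 and Pkhd1 passed no test, and Rpl35 is low in NCD, as it was in other cell types.

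Further genes were higher in HFD than in NCD. Il34, a ligand of the macrophage receptor CSF1R, gave 3, 201, 28 and 62 UMIs (5.34, 71.8, 67.0 and 22.4 CPM, log2 fold change 3.73 ± 0.61, adjusted p = 0.0373). Vtn, which encodes vitronectin, gave 23, 492, 106 and 301 UMIs (41.0, 176, 254 and 109 CPM, log2 fold change 2.40 ± 0.44, adjusted p = 0.0489). Chsy3, which builds chondroitin sulfate, stood at 8.91, 114, 132 and 48.3 CPM, and Igfbp4, an IGF-binding protein, at 3.56, 64.3, 76.5 and 23.4 CPM. Il34 and Igfbp4 rest on 3 and 2 NCD UMIs. In these genes JQF lay between NCD and HFD, and none of the JQF differences passed. Serpina1c also rose, at 62.3, 875, 536 and 273 CPM, but its near-identical paralogs make its counts uncertain. S100a6 and Rpl35 rose too, and of the 11 genes that rose these and Basp1 were lowest in NCD among T cells, endothelial cells and all other kept cells as well. S100a6 stood at 10.7 CPM in NCD duct-like cells and 67.1 to 257 CPM in the other libraries, beside 408 CPM in NCD T cells and 628 to 997 CPM in the T cells of the others, and 86.0 against 733 to 807 CPM in all other kept cells. Rpl35, a ribosomal protein gene, stood at 99.7 CPM in NCD and at 610, 713 and 646 CPM in the other libraries, but T cells (170 CPM in NCD, 958 to 1087 elsewhere) and endothelial cells (81.9 CPM in NCD, 463 to 565 elsewhere) of the NCD library were low in the same way.

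The genes that fell in HFD against NCD rested on few cells, and most were also high in other cells of the NCD library. Of the 15, NCD stood above each of the other libraries in T cells for 13, in endothelial cells for 13 and in all other kept cells for 14, and by at least 2-fold for 6 in each. Gm12703 stood at 46.5 CPM in NCD T cells and 4.46 to 8.29 CPM in T cells elsewhere, and Pecam1 at 201 against 94.9 to 99.9 CPM. In endothelial cells Pecam1 went the other way, at 552 CPM in NCD and 920 to 1070 CPM elsewhere. The part of these NCD levels in the results was not tested. Arl13b, a GTPase of the primary cilium, gave 415, 276, 34 and 294 UMIs (739, 98.6, 81.3 and 106 CPM), and 3 cells held 67.7% of its NCD UMIs. In Pecam1, an endothelial gene, 92.4% of the 66 NCD UMIs were in 3 cells. Trabd2b, Me3, Itpkc, Atg4a, Gm12703 and Ppm1n were called with 3 cells holding 50% or more in the same way. In JQF the called increases were those of the fibroblast genes Dcn, Pi16 and Gsn, with 172, 106 and 215 UMIs, of which 3 cells held 95.8% or more. With doublets removed Dcn and Pi16 had no value and Gsn had an adjusted p of 0.9999 in edgeR. The log2 fold change of Gsn ran from -0.92 to 3.52 over the alternatives. DESeq2 gave an adjusted p of 0.177 for Dcn and 0.9999 for Pi16 and Gsn. Krt17, a keratin of basal cells, fell in JQF from 46.1 and 88.5 CPM to 5.05 CPM, and 3 cells held 82.5% of its HFD UMIs.

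The duct markers themselves were not called. Of 16 bile duct markers in duct-like cells, 0 passed in either direction in either comparison with edgeR, beside 0.217% and 0.0666% of all genes, and the median log2 fold change was 0.19 for HFD over NCD and -0.04 for JQF over HFD, beside 0.06 and -0.01 over all genes tested. Sox9 stood at 525, 674, 557 and 625 CPM. Pkhd1 was highest in NCD, at 3272 CPM against 1862, 1684 and 1961 CPM, with an adjusted p of 0.457 in edgeR for HFD against NCD. Among 16 genes of ductular reaction and fibrosis, 12 were above 0 for HFD over NCD, and of these Vtn alone passed. The list had a median of 0.53 for HFD over NCD and -0.35 for JQF over HFD. Of 11 interferon-stimulated genes, 0 passed, with 10 above 0 and a median of 1.73 for HFD over NCD. In JQF over HFD 0 of the 11 were above 0, with a median of -1.31, in a comparison that uses the same HFD libraries. Their summed level was 331 CPM in NCD, 803 and 500 CPM in HFD, and 318 CPM in JQF, and Isg15 gave 17.8, 143, 33.5 and 33.2 CPM, so that HFD replicate 1 was the high library. Of 7 MHC class II genes 0 passed. Cd74, the invariant chain of that pathway, stood at 249, 173, 275 and 81.9 CPM, lowest in JQF (log2 fold change -1.43 ± 0.38 over HFD, adjusted p = 0.612 in edgeR). Of 12 chemokine genes tested 0 passed, with medians of 1.24 and -1.38.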

How the data were processed

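Liver cells of 4 libraries were measured by 10x 3' RNA-seq. The deposited values are raw UMI counts per gene and barcode, which the authors made with Cell Ranger on mm10. The labels name Cell Ranger 6.0.1 and Seurat 4.0.3, while the file headers name 7.0.0 (filtered) and 4 (unfiltered), so whether introns were counted is not settled. Members were found in the filtered matrices. A few genes that the naming rule covers are not reported here. The members and gene lists were chosen with earlier results of these data known. UMIs were summed per library, filtered by expression, scaled by TMM and tested with edgeR 4.0.16 (quasi-likelihood, Benjamini-Hochberg 0.05, 1 residual degree of freedom); DESeq2 1.42.0 was an alternative. Scrublet (scanpy 1.11.5) scored doublets, and the barcodes with the top scores were marked at 0.8% per 1000 barcodes, since its own threshold marked 0.0689%, 0.0132%, 2.92% and 0.0111% of barcodes; they were not removed in the main result. T cells held at least 2 Cd3 UMIs and no Epcam, endothelial cells at least 3 UMIs of Ptprb and Stab2 and no Ptprc or Epcam. Genes were named from fixed lists, as the 10 most changed called genes in each direction with at least 30 UMIs (with fewer than 5 calls, the 10 with the smallest p), and as the 20 genes highest over other cells or the 15 highest between classes, detected in at least 25% of cells; class folds used a floor of 3 UMIs. On simulated data for HFD against NCD, the test on all members (12858 genes) recovered 45% of 4-fold and 98% of 16-fold changes, and on duct-like cells (11309 genes) 78% and 100%. The simulated spread was close to that fitted in duct-like cells (common dispersion 0.0459) and well below that of all members (0.264). Of the genes left unchanged there, 0% were called over all members and 0.072% in duct-like cells. The changed genes were drawn only from those with higher counts. The recovery over all members is therefore for a smaller spread than in the data.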

Additional observations from a re-analysis of the deposited data

Results flagged for a closer look

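A signal in barcodes that entered no comparison marked these results. The 5 gastric genes stood at 9160 CPM in the barcodes outside called cells of HFD replicate 2, against 2.74 CPM in NCD, 0.402 CPM in HFD replicate 1 and 7.05 CPM in JQF. Spink4 and S100g together stood at 320.3 CPM in the same kind of barcodes in JQF, against 0.265 CPM in NCD, 9.26 CPM in HFD replicate 1 and 71.5 CPM in HFD replicate 2. Of all UMIs, 6.68% to 10.5% were in such barcodes.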

How the results depend on the processing

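No paired analysis was possible because the groups compared share only replicate number 1. The member shares kept their order of NCD, HFD mean and JQF under every alternative run, although HFD replicate 2 (0.447%) fell just below NCD (0.448%) with doublets removed. The gut-gene positive share was 0% in NCD after thinning to 3000 UMIs and 20.5% in HFD replicate 1 with at least 1 summed UMI. In HFD replicate 2 it was 89.4% with at least 1 UMI, 54.1% with at least 10 UMIs or after thinning, 42.9% with doublets removed, and 51.8% when gastric genes needed 100 UMIs. Over all members, the 0 calls of edgeR in HFD against NCD became 73 with library totals, 264 without a filter on low counts and 18 in DESeq2; they became 46 without gastric-gene cells, 26 in duct-like cells alone and 353 with the 12 cells of 3 to 99 gastric UMIs added to these. In JQF against HFD the same settings gave 90, 242, 31, 236, 8 and 71, and 1 in duct-like cells with doublets removed. The settings by gastric-gene or duct-like cells and by 100 gastric UMIs were chosen after seeing the data. With library totals, the all-gene median (log2) of HFD over NCD went from 0.16 to -0.16. The cause was not tested. DESeq2 size factors, removing doublets, 5 keratin UMIs and stricter cell filters left 0 calls over all members. In duct-like cells 26 and 8 calls became 48 and 16 with DESeq2 size factors, 68 and 14 with library totals, and 229 and 56 without the filter. Without either HFD replicate no residual spread is left, so fold changes alone were computed. The number of cells limits the NCD values, which rest on 25 cells.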

Other observations

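Cells rich in the gut genes were also found among barcodes that the rule left out. In HFD replicate 2, 25 kept cells outside the rule held at least 100 gastric UMIs, of which 22 held Ptprc UMIs, 4 held more than 1 endothelial UMI and 1 lacked Epcam. In JQF, 43 kept cells outside the rule held at least 100 UMIs of Spink4 and S100g, and all 43 held Ptprc UMIs, beside 54 cells inside the rule. HFD replicate 2 held 5 more of these, all with Ptprc UMIs. In NCD and HFD replicate 1 there were 0 such cells outside the rule. The tuft cell genes Trpm5 and Il25 were at 0 in duct-like, Spink4/S100g and gastric-gene cells, while all 9 tuft cell genes summed to 42.9, 68.6 and 238 CPM. Endocrine genes summed to 3.36 CPM in duct-like cells, 1.48 CPM in Spink4/S100g cells and 15.8 CPM in gastric-gene cells. Basal cell keratins Krt5 and Krt14 were at 0 in the same classes.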
